A study of Mus musculus with 14 samples.

Results

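The H3K4me2 landscapes of 2 untreated MLL-AF9 leukemia lines were compared. Each line was represented by 1 solvent control, the DMSO sample of MAF9 cells and the EtOH sample of Mll1 flox cells. The members were the autosomal peaks of these lists, 102640 in DMSO and 98735 in EtOH, so that 201375 of the 389364 H3K4me2 peaks in the 4 H3K4me2 lists of the series were described here. A peak was counted as shared when at least 1 bp lay in a peak of the other list and as line-specific otherwise.

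MAF9 cells are mouse bone marrow cells transduced with the MLL-AF9 fusion. The Mll1 flox cells were also transduced with MLL-AF9 but carried the genotype MLL1 flox/flox with ER-cre+/-, a Cre recombinase that acts after tamoxifen, and in EtOH this Cre had not been induced. The labels give 1 culture protocol for the series, IMDM with 15% serum and interleukin-3 at 10 ng/ml, and 15 µl of the same H3K4me2 antibody went into each ChIP. The DMSO sample was the control for MM-401, a blocker of the MLL1-WDR5 contact given at 20 µM for 2 days, and the EtOH sample was the control for 4OHT, given at 400 nM for 2 days to delete Mll1. The treated lists (MM-401 in MAF9 cells, 4OHT in Mll1 flox cells) were used here only to ask whether a difference between the lines was seen again in other libraries. Line, solvent and experiment changed together and each group held 1 library, so these cannot be told apart, no test between the lines was possible and no p-value is given. The lists hold positions without heights or read counts, hence depth is unknown, and a missing peak is a peak that was not called. No marker of the cell type could be checked in such lists.

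H3K4me2 is laid down by the MLL family of methyltransferases, complexes that share the subunit WDR5, and it marks promoters and enhancers in a primed or active state. At active promoters the mark commonly flanks a nucleosome-poor center, whereas narrower isolated patches are typical of distal elements. Unusually wide domains are known from strongly transcribed and cell identity genes.

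The EtOH list was made of more very wide and more very narrow peaks than the DMSO list, although both covered similar amounts of the genome. DMSO peaks covered 95.5 Mb of the autosomes and EtOH peaks 98.9 Mb. In the width classes used here the upper limit is included and the lower limit is not, except in the first class, which holds the narrowest peaks. Peaks of 75 to 100 bp numbered 12013 in DMSO and 15149 in EtOH. In the middle of the range the order was the opposite, with 16163 DMSO and 11040 EtOH peaks of 500 to 1000 bp, and 18608 DMSO and 11421 EtOH peaks of 1000 to 2000 bp. Domains of 5 kb or more, called wide domains below, numbered 1610 in DMSO and 3146 in EtOH. They made up 12.4% of the covered bases in DMSO and 25.1% in EtOH. The treated list of each line held 1690 (MM-401) and 2088 (4OHT) wide domains, so the Mll1 flox line again had more, by a smaller margin. Neighbouring peaks also lay closer together in EtOH, where the median gap to the next peak was 625 bp against 1600 bp in DMSO.

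Shared peaks dominated among wide peaks and line-specific peaks among narrow ones. Overall 69.4% of DMSO peaks were overlapped in EtOH (71283 of 102640, 95% Wilson interval 69.2 to 69.7%) and 65.7% of EtOH peaks in DMSO (64900 of 98735, interval 65.4 to 66.0%). These intervals cover the counting of peaks only. By bases the shares were higher, since 82.1% of the DMSO bases lay in EtOH peaks and 79.2% of the EtOH bases in DMSO peaks. Of the DMSO peaks of 75 to 100 bp, 35.0% had a partner in EtOH, and the share rose through 53.3% at 200 to 300 bp and 86.1% at 500 to 1000 bp to 100% of the 1584 peaks over 5000 bp. The EtOH list gave 30.5%, 55.7%, 91.5% and 100% of 3119 for the same classes. No domain of 5 kb or more was therefore private to a line. At 500 to 1000 bp the share of EtOH peaks with a partner was above that of DMSO peaks by more than both intervals (90.9 to 92.0% against 85.6 to 86.7%), and at 75 to 100 bp it was below (29.8 to 31.2% against 34.1 to 35.8%).

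**Figure D1:**
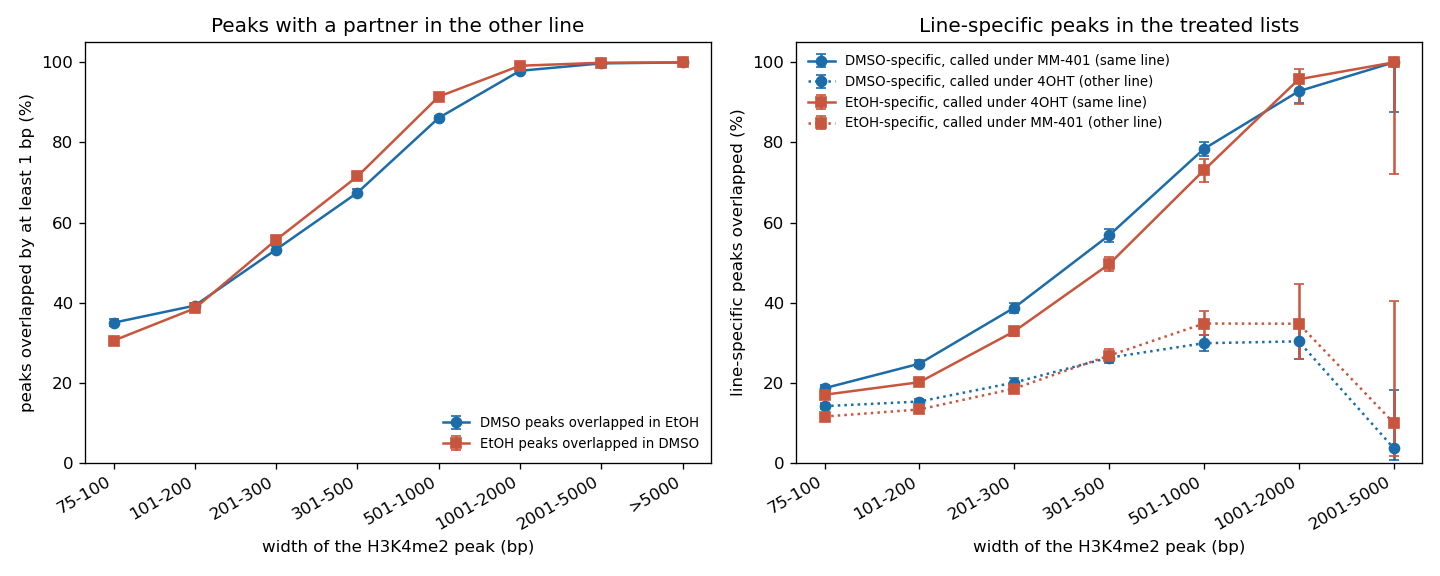
Left, percentage of H3K4me2 peaks with at least 1 bp in a peak of the other line (y axis) for 8 classes of peak width (x axis, bp), DMSO circles and EtOH squares. Right, percentage of line-specific peaks overlapped in each treated list, solid lines for the treated list of the same line and dotted lines for that of the other line. Bars are 95% Wilson intervals on the count of peaks. The left curves climb from 35.0% and 30.5% to 100%, and on the right the solid and dotted lines part as width grows.

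Linked groups of overlapping peaks showed how the peaks of the lines corresponded. Of 116336 groups, 30633 joined 1 DMSO peak to 1 EtOH peak, 9892 joined several DMSO peaks to 1 EtOH peak, 7007 joined 1 DMSO peak to several EtOH peaks and 3612 joined several to several. A further 31357 held a DMSO peak alone and 33835 an EtOH peak alone. The groups with several DMSO peaks and 1 EtOH peak covered 28.7 Mb in DMSO and 33.5 Mb in EtOH, and the reverse groups covered 11.8 Mb and 10.1 Mb. Joining several pieces into 1 peak was thus more frequent in the EtOH list.

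The 1-to-1 pairs differed in the same way at their edges. Among pairs with a mean width of 2000 to 5000 bp the EtOH peak was the wider in 75.4% and the DMSO peak in 21.8% of 4340, with a median difference of 225 bp. Above 5000 bp the EtOH peak was wider in 81.4% of 328 pairs, and in 61.9% it contained the whole DMSO peak, with 1 matching end allowed. Between 100 bp and 1 kb the DMSO peak was the wider more often, and at 75 to 100 bp each list was the wider in 99 pairs. At 300 to 500 bp the DMSO peak was wider in 60.5% of 5029 pairs, with a median difference within pairs of 100 bp. Both ends matched exactly in 141 of the 30633 pairs, on a grid of 25 bp. The widest pair spanned 15525 bp in DMSO (chr6:119322626-119338150, mm9) and 16050 bp in EtOH (chr6:119322526-119338575). The next 4, on chromosomes 12, 11, 8 and 15, were 13700 to 14650 bp wide in DMSO and 14325 to 15725 bp wide in EtOH, so that in each of the 5 widest pairs the EtOH peak was the wider, by 25 bp at chr11:96054201-96068500 and by 1250 bp at chr15:81678301-81692000.

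Partners of middle-sized DMSO peaks were spread over a broad range of widths in EtOH. Of the 18608 DMSO peaks of 1000 to 2000 bp, 40.0% had a widest EtOH partner of the same class, 38.1% a wider one and 19.9% a narrower one, and 2.09% had none. Of the 11421 EtOH peaks of this class, 65.2% had a DMSO partner of the same class, 10.7% a wider one and 23.2% a narrower one. DMSO peaks of 300 to 1000 bp had no EtOH partner in 21.8% and a widest partner of at most 300 bp in 18.5%. Middle-sized DMSO peaks therefore met wider EtOH peaks at some positions and narrower EtOH peaks, or none, at others.

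Wide domains were cut into pieces far more often in the DMSO list than in the EtOH list. A domain was called split when at least 2 peaks of the other list lay in it. Of the 3146 wide EtOH domains, 82.2% were split in DMSO (2586 domains, interval 80.8 to 83.5%), against 35.7% of the 1610 wide DMSO domains in EtOH (574 domains, interval 33.3 to 38.0%). Over peaks of any width the split shares were 14.3% for EtOH peaks and 10.8% for DMSO peaks. Among domains of 10 kb or more, 92.1% of 535 EtOH domains and 40.0% of 185 DMSO domains were split. A wide EtOH domain held a median of 2 DMSO peaks and a wide DMSO domain a median of 1 EtOH peak, and 6 or more pieces were found in 209 EtOH and 37 DMSO domains. Of the wide DMSO domains, 89.7% overlapped a wide EtOH domain, but 44.6% of the wide EtOH domains overlapped a wide DMSO domain.

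**Figure D2:**
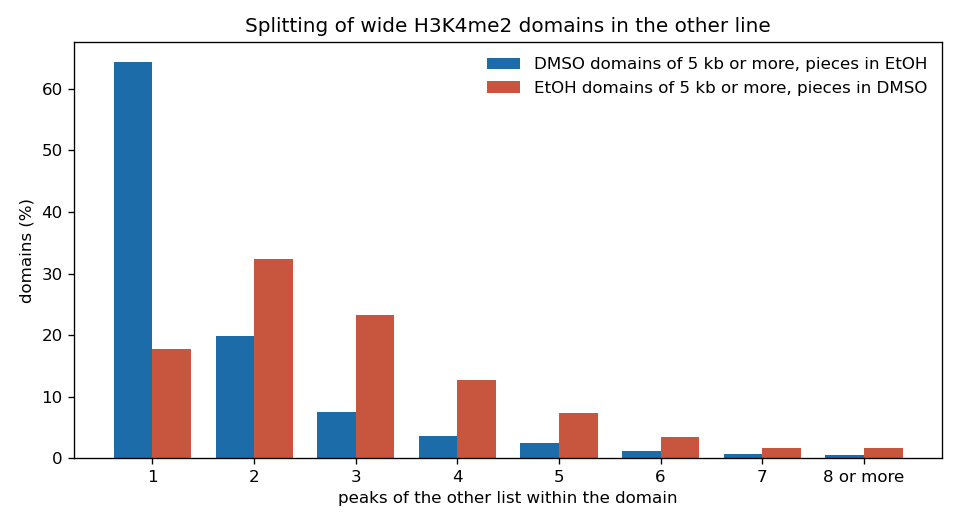
Percentage of wide H3K4me2 domains (y axis) by the number of peaks of the other list within them (x axis), for 1610 DMSO domains (blue) and 3146 EtOH domains (red). A single piece was found in 1036 DMSO domains and 560 EtOH domains, and 2 pieces was the most frequent outcome for EtOH domains (1017).

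The pieces were separated by short gaps. The 5845 DMSO gaps inside wide EtOH domains had a median of 175 bp (quartiles 75 and 350 bp), and the 1125 EtOH gaps inside wide DMSO domains a median of 150 bp (quartiles 50 and 250 bp). Gaps of up to 500 bp made up 86.4% and 94.0%. When peaks of the other list up to 500 bp apart were joined, 23.4% of the EtOH domains and 3.29% of the DMSO domains were still split. In bases, 88.5% of the wide EtOH domains was covered in DMSO, with 1.56 Mb missing in gaps and 1.29 Mb at the ends, and 96.7% of the wide DMSO domains was covered in EtOH. The treated lists showed the same gaps in part. Of the DMSO gaps, 51.0% were at least partly uncovered under MM-401 (same line) and 35.3% under 4OHT. Of the EtOH gaps, 61.3% were at least partly uncovered under 4OHT (same line) and 54.3% under MM-401. Gaps over 300 bp recurred more often in both treated lists, the DMSO gaps in 78.1% under MM-401 and 66.4% under 4OHT, and the EtOH gaps in 92.4% under 4OHT and 69.0% under MM-401. A gap counted as recurring when any part of it was uncovered, which favors longer gaps. The gaps also lay in domains that the control of the other line called unbroken, which can favor coverage in its treated list. No share for other parts of these domains is given, so the contrast between the treated lists has no baseline.

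WDR5, the shared subunit of the MLL complexes, lay in the gaps of one list but hardly in those of the other. Of the 5845 DMSO gaps, 18.9% held a WDR5 peak of EtOH cells and 10.8% one of DMSO cells. By bases, EtOH WDR5 peaks covered 13.7% of these gaps and 4.09% of the pieces beside them, and DMSO WDR5 peaks covered 6.88% and 3.10%. Of the 1125 EtOH gaps, 5 held a WDR5 peak of EtOH cells and 2 one of DMSO cells. There the WDR5 peaks of DMSO cells covered 0.0772% of the gaps and 2.63% of the pieces. In DMSO gaps over 300 bp the share with an EtOH WDR5 peak reached 33.7%. The WDR5 lists differed in length, with 14289 autosomal peaks in DMSO and 33974 in EtOH, and each list on its own gave more WDR5 in the DMSO gaps than in the EtOH gaps.

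Single domains illustrate both directions. The EtOH domain with the most DMSO pieces was chr4:117144601-117169525, 24925 bp wide in EtOH, with 15 DMSO peaks of 125 to 4600 bp separated by gaps of 25 to 850 bp. DMSO peaks covered 87.0% of it. MM-401 showed 15 peaks and 4OHT 13 peaks in the same domain, and an uncovered part about 10 to 11 kb from its start was seen in DMSO, MM-401 and 4OHT but not in EtOH. The next was chr7:148626676-148656725, 30050 bp in EtOH, with 15 pieces in DMSO, 15 under MM-401 and 8 under 4OHT. It held 8 WDR5 peaks in EtOH and 2 in DMSO. The remaining 3 (chr1:57019776-57035525, chr6:66843776-66862275 and chr9:114664976-114699425) had 12 DMSO pieces each, with 6, 8 and 13 pieces under MM-401 and 8, 5 and 6 under 4OHT. The rule took the highest counts in DMSO, so nothing is read from lower counts in the treated lists.

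The DMSO domain with the most EtOH pieces was chr8:34775526-34798450, 22925 bp wide. Its first 12 kb was 1 peak in EtOH (12225 bp), followed by 14 EtOH peaks of 75 to 1725 bp with gaps of up to 1100 bp. EtOH peaks covered 72.8% of it, or 16700 bp, MM-401 peaks 20150 bp and 4OHT peaks 13700 bp. At chr13:112262601-112272000, a 9400 bp DMSO domain, EtOH peaks covered 4400 bp in 11 pieces and 4OHT peaks 375 bp in 2 pieces, while MM-401 peaks covered 7475 bp in 10 pieces. The other domains named by the rule were chr19:12648851-12660775 (13 EtOH pieces), chr2:155976551-155985675 (12) and chr12:71077601-71087675 (11). The treated lists did not follow their lines at each of the 5. At the chromosome 2 domain MM-401 covered 2075 of 9125 bp and EtOH 6675 bp, and at the chromosome 12 domain MM-401 covered 4525 of 10075 bp and EtOH 7775 bp. At the chromosome 19 domain MM-401 and 4OHT covered similar lengths, 10975 and 10875 of 11925 bp.

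**Figure D3:**
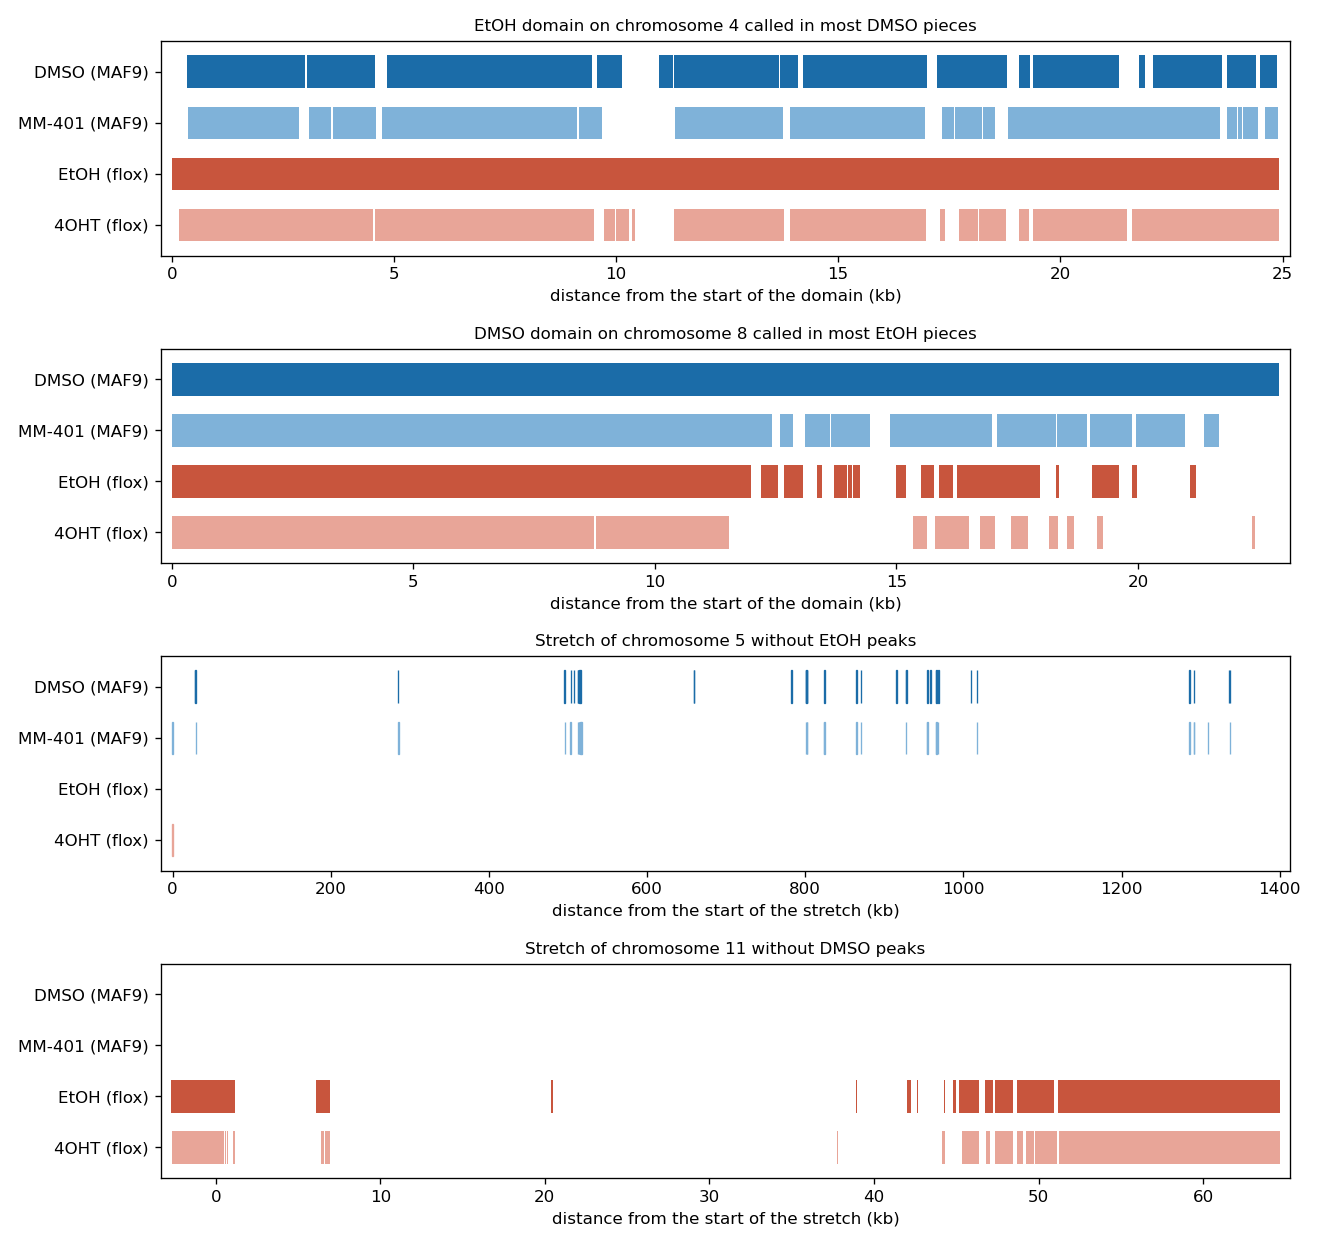
Called H3K4me2 peaks (boxes, drawn to scale with a thin outline in the chromosome 5 panel) in the 4 lists along 4 regions, x axis in kb from the start of each region. From the top, the EtOH domain on chromosome 4 with 15 DMSO pieces, the DMSO domain on chromosome 8 with 15 EtOH pieces, the 1399.5 kb of chromosome 5 without an EtOH peak and the 58.9 kb of chromosome 11 without a DMSO peak. In both stretches the treated list of each line followed its own solvent control, and the 1 exception is a 4OHT peak at the left end of the chromosome 5 stretch. In the chromosome 11 panel the first and last peaks of EtOH and of 4OHT run past the ends of the stretch.

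Line-specific peaks were mostly narrow, with median widths of 175 bp in DMSO and 150 bp in EtOH. To ask which of them recurred, they were looked up in the treated lists. Of the 31357 DMSO-specific peaks, 34.6% were called under MM-401 (interval 34.1 to 35.1%) and 18.5% under 4OHT (18.1 to 18.9%), against 69.4% and 65.9% of DMSO peaks in general. Of the 33835 EtOH-specific peaks, 26.0% were called under 4OHT (25.5 to 26.4%) and 15.6% under MM-401 (15.3 to 16.0%), against 62.8% and 60.3% of EtOH peaks in general. Allowing a distance of 2 kb, both for sharing between the lines and for recall, left 14698 DMSO-specific and 4061 EtOH-specific peaks. Of these, 56.3% and 52.3% were called in the treated list of the same line. Shares of all peaks at this distance are not given, so the higher values have no baseline. With sharing at 1 bp, neither treated list held 57.2% of the DMSO-specific and 66.9% of the EtOH-specific peaks.

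Recurrence rose with width for line-specific and shared peaks alike. Of the shared DMSO peaks, 44.0% were called under MM-401 and 58.3% under 4OHT at 75 to 100 bp, 94.9% and 92.3% at 500 to 1000 bp, and 99.5% and 98.8% at 1000 to 2000 bp. Shared EtOH peaks gave 42.3% under 4OHT and 52.9% under MM-401 at 75 to 100 bp, and 95.6% and 92.7% at 500 to 1000 bp. DMSO-specific peaks of 75 to 100 bp were called under MM-401 in 18.6% and under 4OHT in 14.1%. At 500 to 1000 bp the shares were 78.4% and 29.9% of 2240, and at 1000 to 2000 bp 92.8% and 30.3% of 389. All 27 DMSO-specific peaks of 2000 to 5000 bp were called under MM-401 and 1 of them under 4OHT. EtOH-specific peaks gave 17.0% under 4OHT and 11.6% under MM-401 at 75 to 100 bp, 73.1% and 34.8% of 943 at 500 to 1000 bp, and 95.8% and 34.7% of 95 at 1000 to 2000 bp. All 10 EtOH-specific peaks of 2000 to 5000 bp were called under 4OHT and 1 under MM-401. Thus line-specific peaks over 500 bp were seen again in a second library of their line and experiment in most cases, while those of up to 200 bp usually were not, and shared peaks of that width were often missed as well.

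The surroundings of line-specific peaks differed between the lines. Of the EtOH-specific peaks, 88.1% lay within 2 kb of a DMSO peak (median distance 400 bp) and 3.06% lay more than 10 kb away. Of the DMSO-specific peaks, 53.2% lay within 2 kb of an EtOH peak (median 1500 bp) and 25.4%, or 7965, lay more than 10 kb away. The distance grew with width in DMSO, to a median of 10275 bp for DMSO-specific peaks of 1000 to 2000 bp, for which EtOH-specific peaks gave 2275 bp. Among the 7965 distant DMSO-specific peaks, 46.8% were called under MM-401 and 10.3% under 4OHT. Among the 1037 distant EtOH-specific peaks, 34.0% were called under 4OHT and 24.7% under MM-401. EtOH-specific calls thus mostly stood beside DMSO peaks, and of the line-specific calls more than 10 kb from any peak of the other line most came from the DMSO list. The contrast was not particular to the other list. EtOH-specific peaks lay within 2 kb of another EtOH peak in 90.1%, and DMSO-specific peaks within 2 kb of another DMSO peak in 70.3%. The EtOH list was also the more closely spaced as a whole (median gap 625 bp against 1600 bp).

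The 5 widest DMSO-specific peaks were 2925 to 3475 bp wide. The widest, chr15:85493976-85497450, ended or began 25 bp from an EtOH peak, and MM-401 peaks covered 3275 of its 3475 bp. At chr1:163967076-163970275 a DMSO peak of 3200 bp was matched by 3175 bp under MM-401, and at chr19:36986001-36989200 by 2450 of 3200 bp. The most isolated was chr18:62958901-62962050, 3150 bp wide and 78375 bp from the nearest EtOH peak, with 2550 bp under MM-401 and a WDR5 peak in both DMSO and MM-401. The last, chr5:108115276-108118200, measured 2925 bp. All 5 were recalled under MM-401, and neither EtOH nor 4OHT had a call in any of them.

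The 5 widest EtOH-specific peaks were 2450 to 3750 bp wide. The widest was chr16:36277151-36280900, 35300 bp from the nearest DMSO peak, with an EtOH WDR5 peak and 3100 bp recalled under 4OHT. At chr5:116033351-116036475 the 4OHT list covered all 3125 bp, again with a WDR5 peak in EtOH. The others were chr4:107455301-107458225 (2725 of 2925 bp under 4OHT), chr11:116625551-116628375 (2725 of 2825 bp) and chr4:9033601-9036050 (2250 of 2450 bp). All 5 were recalled under 4OHT, and neither DMSO nor MM-401 had a call in any of them.

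Over all widths, WDR5 overlapped shared H3K4me2 peaks more often than line-specific peaks. In DMSO, 11.1% of all H3K4me2 peaks held a WDR5 peak of the same cells, 15.5% of the shared and 1.10% of the line-specific ones. In EtOH the figures were 13.1%, 19.2% and 1.47%. Line-specific peaks were narrower, so the shares were also taken within width classes. At 500 to 1000 bp, 9.75% of shared (interval 9.26 to 10.3%) and 2.46% of line-specific DMSO peaks (1.89 to 3.18%) held WDR5, and at 1000 to 2000 bp 20.2% and 7.97% did. In EtOH the shares at 500 to 1000 bp were 7.51% (7.01 to 8.04%) and 4.35% (3.22 to 5.85%). In each EtOH class up to 500 bp, where most EtOH-specific peaks lay, the intervals overlapped. At 100 to 200 bp the EtOH shares were 1.34% and 1.28%, and at 300 to 500 bp 3.16% (2.80 to 3.57%) and 2.55% (2.06 to 3.16%). Among H3K4me2 peaks over 5000 bp, WDR5 lay in 57.0% of those in DMSO and 78.9% of those in EtOH. The WDR5 lists held 14289 peaks in DMSO and 33974 in EtOH, so these shares cannot be compared between the lines.

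To find where in the genome the lines differed, covered bases were summed in 1 Mb windows. Of 2421 windows, 2110 held a peak in DMSO or EtOH. The lists ranked the windows alike (Pearson r = 0.989, Spearman rho = 0.992 over 2421 windows, a description across windows of the same libraries). DMSO covered more bases in 1165 windows and EtOH in 935. The direction went with the density of H3K4me2. When the 2110 windows were ordered by the mean of both lists and divided into 4 groups, DMSO was higher in 73.5% of the 528 least covered windows and EtOH in 80.1% of the 527 most covered. The EtOH to DMSO ratio of covered bases was 0.761, 0.893, 0.978 and 1.10 from the least to the most covered group. In the same windows the 4OHT to MM-401 ratio was 0.647, 0.862, 0.969 and 1.07. EtOH coverage was thus more concentrated in H3K4me2-rich windows, and the treated lists of the same lines differed in the same order.

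Fold differences of whole windows were rare. Of 1592 windows with at least 10 kb covered in 1 of the lists, 10 were at least 2-fold higher in DMSO (0.628%) and none in EtOH (0%). In 7 of the 10, MM-401 was also at least 2-fold above 4OHT. These windows were sparsely covered. The densest was chr15:37000001-38000000, where 21525 bp was covered in DMSO and 23150 bp under MM-401, against 8625 bp in EtOH and 9075 bp under 4OHT. The steepest was chr5:113000001-114000000, where DMSO peaks covered 14150 bp and MM-401 peaks 9475 bp, and EtOH and 4OHT had none. This window lies inside the chromosome 5 stretch without EtOH peaks described below, so both describe 1 locus. In the others the DMSO to EtOH ratio lay between 2.20 (chr18:25000001-26000000) and 3.02 (chr13:60000001-61000000 and chr11:71000001-72000000).

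The windows with the largest difference in covered bases were dense ones. EtOH exceeded DMSO most at chr10:80000001-81000000, with 289 kb in DMSO, 268 kb under MM-401, 371 kb in EtOH and 310 kb under 4OHT. The neighbouring chr10:79000001-80000000 had 299 kb in DMSO and 368 kb in EtOH, and these 2 were the most covered windows of both lists. At chr11:116000001-117000000 the lines differed by the largest factor of the 10, 1.51, with 140 kb in DMSO, 124 kb under MM-401, 211 kb in EtOH and 181 kb under 4OHT. At chr13:23000001-24000000 DMSO had 151 kb in 124 peaks and EtOH 217 kb in 120 peaks, with mean widths of 1220 and 1805 bp. The treated lists were closer there, with 166 kb in 128 peaks under MM-401 and 177 kb in 143 peaks under 4OHT, and the 4OHT peaks were not the wider (mean 1241 bp against 1298 bp). The other 6 EtOH windows lay on chromosomes 4, 8, 11, 7, 19 and 4 and had ratios of 1.22 to 1.29.

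Among the 10 windows with the largest DMSO excess, 5 lay on chromosome 1. The largest was chr13:112000001-113000000, with 92.9 kb in DMSO, 82.6 kb under MM-401, 54.3 kb in EtOH and 39.2 kb under 4OHT, and it contains the split chromosome 13 domain described above. At chr1:64000001-65000000 DMSO had 103 kb and EtOH 72.8 kb, and at chr1:90000001-91000000 58.9 kb and 33.0 kb. The others were the windows starting at 13000001, 163000001 and 59000001 on chromosome 1, at 109000001 on chromosome 4, at 25000001 and 5000001 on chromosome 15 and at 110000001 on chromosome 13, with DMSO to EtOH ratios of 1.33 to 1.62. In each of these 10 windows MM-401 was above 4OHT, and in each of the 10 EtOH windows 4OHT was above MM-401.

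**Figure D4:**
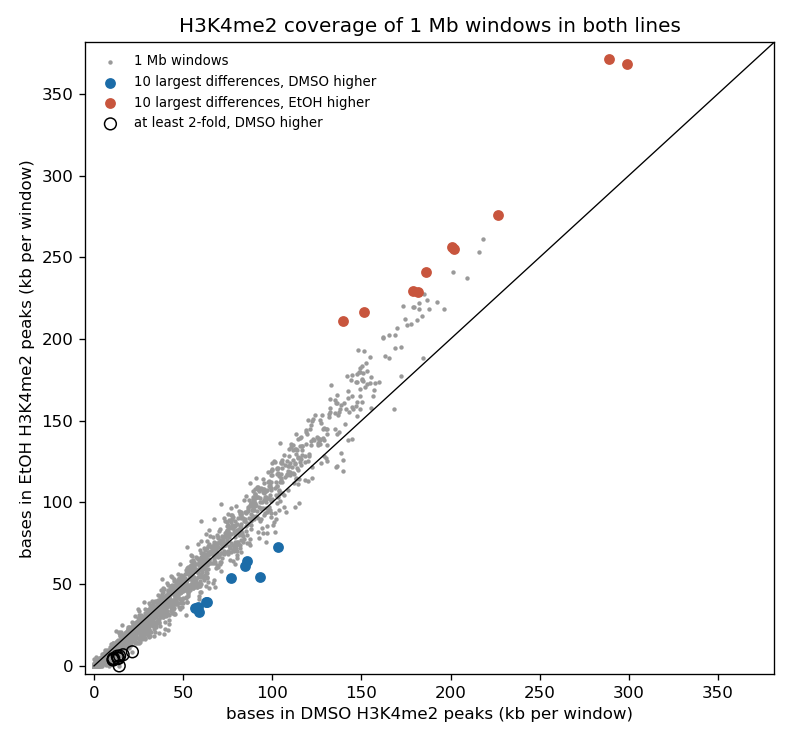
Bases in EtOH peaks (y axis, kb) against bases in DMSO peaks (x axis, kb) for 2421 windows of 1 Mb (gray), with the line of equality. Colored points are the 10 largest differences in each direction and open circles the 10 windows at least 2-fold higher in DMSO. Most of the dense windows lie above the line, the highest at 371 kb in EtOH and 289 kb in DMSO, and the open circles lie at the sparse end.

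The window differences recurred in the treated lists. Of 96 windows in which DMSO exceeded EtOH by at least 10 kb, MM-401 exceeded 4OHT in 93 (96.9%), against 62.6% of windows with peaks in general. Of 268 windows in which EtOH exceeded DMSO by at least 10 kb, 4OHT exceeded MM-401 in 266 (99.3%), against 37.2% in general. The general shares mix sparse and dense windows and are therefore a loose baseline. MM-401 exceeded 4OHT in 86.9% of the 528 least covered windows and in 20.5% of the 527 most covered. Recurrence within windows of similar density was not tested. Over 2421 windows the difference DMSO minus EtOH and the difference MM-401 minus 4OHT had a Pearson r of 0.860 and a Spearman rho of 0.775, between libraries that share no sample but share line and experiment.

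By chromosome, chromosome 1 stood apart. EtOH covered more bases than DMSO on 17 of 19 autosomes, with a median ratio of 1.04. On chromosome 1 the ratio was 0.854, with 7.31 Mb in DMSO and 6.24 Mb in EtOH, and the 4OHT to MM-401 ratio was also 0.854. The only other autosome below 1 was chromosome 18 at 0.961. The highest was chromosome 11 at 1.13, where 4OHT to MM-401 gave 1.08. The chromosome 1 deficit ran along its length, since in each of 10 segments of 20 Mb EtOH was below DMSO, with ratios of 0.747 to 0.910. DMSO was higher in 159 and EtOH in 13 of the 173 chromosome 1 windows with peaks, against 1165 and 935 of 2110 over the autosomes. In width classes, chromosome 1 had 141 DMSO and 169 EtOH peaks over 5000 bp, a ratio of 1.20, compared with 2.05 on chromosome 11 and 2.04 on the autosomes other than these. At 1000 to 2000 bp the ratios were 0.610, 0.598 and 0.616 in the same order. At 75 to 100 bp they were 1.10, 1.44 and 1.26. Whether chromosome copy number differed between the lines was not tested.

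**Figure D5:**
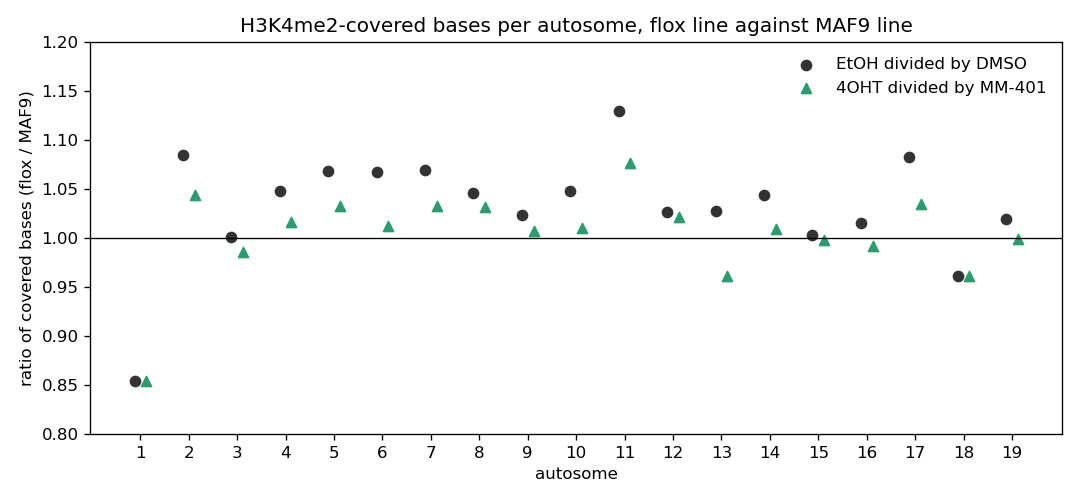
Ratio of H3K4me2-covered bases, Mll1 flox line divided by MAF9 line (y axis, which does not start at 0), for the 19 autosomes (x axis). Circles are the solvent controls (EtOH divided by DMSO) and triangles the treated lists (4OHT divided by MM-401). Chromosome 1 lies at 0.854 in both, below the others, and chromosome 11 is highest at 1.13 and 1.08.

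Some stretches held calls of a single line. This search was made after the lists had been seen, and it ranked the intervals between neighbouring peaks of 1 list by the number of peaks of the other in them. The longest absence in EtOH by this measure was chr5:112785076-114184575, 1399.5 kb with 37 DMSO peaks of 75 to 2550 bp, 31 MM-401 peaks, no EtOH peak and 1 4OHT peak that reached into its left end. EtOH cells had 5 WDR5 peaks there and 4OHT cells 8, each 75 to 150 bp wide, of 33974 and 40439 autosomal WDR5 peaks. DMSO cells had 0 and MM-401 cells 1, of 14289 and 17067. The Mll1 flox line thus had a few narrow WDR5 calls in this stretch, and their number was not tested against the rest of the genome. The next were chr9:105546651-106049100 with 27 DMSO, 23 MM-401 and 1 4OHT peaks, chr1:18298301-19195850 with 18, 25 and 2, chr1:91839951-92489275 with 17, 20 and 0, and chr4:99645801-100558225 with 17, 13 and 1. Of 98716 intervals between EtOH peaks, 127 held 10 or more DMSO peaks and 1513 held 5 or more.

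In the reverse direction 13 of 102621 intervals between DMSO peaks held 10 or more EtOH peaks and 1342 held 5 or more, so the directions differed mainly at the higher cutoff. The highest count was at chr12:93088376-95321525, 2233.15 kb with 14 EtOH, 12 4OHT, 3 MM-401 and no DMSO peaks. Of the intervals named here, chr11:116556101-116615025, 58.9 kb long, had the most bases in EtOH peaks. Its 13 EtOH peaks covered 15725 bp and 15 4OHT peaks 13725 bp, with none in DMSO or MM-401. Its first and last EtOH peaks, 3900 and 13475 bp wide, ran past its ends into DMSO peaks and were thus shared. The first of these reached 1.2 kb into the stretch and the last began 51.175 kb from its start. Much of the 15725 bp therefore belonged to shared peaks, and the rank by covered bases rests partly on them. The first and last 4OHT peaks also ran past the ends. The stretch lies in the chromosome 11 window with the ratio of 1.51, and the EtOH-specific peak at chr11:116625551-116628375 begins beyond its right end. At chr16:36241851-36333975, 92.1 kb around the widest EtOH-specific peak, there were 13 EtOH peaks over 8500 bp and 16 4OHT peaks over 5500 bp, and MM-401 had 6 peaks over 725 bp. The remaining intervals were on chromosome 8, chr8:110029726-110043125 with 12 EtOH, 5 4OHT and 1 MM-401 peaks and chr8:58778726-58917950 with 11, 5 and 5, so that there the MAF9 line under MM-401 was not free of calls.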

How the data were processed

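H3K4me2 ChIP-seq was compared between 1 DMSO library of MAF9 cells and 1 EtOH library of Mll1 flox cells. The submitters' processing notes name Bowtie and mouse build mm9, and the peak names in the lists carry the name of HPeak, a caller that bins the genome. The authors deposited called positions (chromosome, start, end) per library, with no score, height or count, so depth and the precision it gives are unknown. All 496759 peaks in the 8 H3K4me2 and WDR5 lists used lay on a 25 bp grid and were read as 1-based and inclusive. Caller thresholds are not given in the sources used here. The gene and promoter tables at hand were of another build (GRCm38), hence no gene names are given. Chromosomes X and Y, the MLL1 lists and the inputs were left out.

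Overlaps were computed with Python 3.11.15 and numpy 2.4.6, window correlations with scipy 1.17.1 and figures with matplotlib 3.10.9. Counts of overlaps and pieces were tested on simulated data with known answers and equalled those of bedtools 2.31.1. Shares carry 95% Wilson intervals, which treat neighbouring peaks as independent. Regions named are the 10 windows with the largest difference in each direction and, per list, the 5 widest line-specific peaks, the 5 wide domains in most pieces and the 5 widest 1-to-1 pairs. The windows of at least 2-fold are also given. The members, width classes and lists were chosen with earlier results of these data known. Chosen after seeing the present results were the stretches without peaks, the ordering of windows by density, the comparison of gaps with WDR5 and with the treated lists, the partner widths and the chromosome segments. Alternatives were other definitions of overlap, split, wide domain and window, and reduced lists.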

Additional observations from a re-analysis of the deposited data

Results flagged for a closer look

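There were 5 autosomes that changed sides between the solvent controls and the treated lists, a difference that was not tested and that a single library per group cannot separate from variation between libraries. The ratio of H3K4me2-covered bases, Mll1 flox line divided by MAF9 line, was 1.03 in the solvent controls and 0.962 in the treated lists on chromosome 13, 1.02 and 0.999 on chromosome 19, and 1.02 and 0.992 on chromosome 16. On chromosome 3 it was 1.002 and 0.986, and on chromosome 15 it was 1.003 and 0.998.

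Outside the autosomes, chromosome X held 2473 DMSO and 2141 EtOH peaks, and chromosome Y 23 and 22. On chromosome X the EtOH to DMSO ratio of covered bases was 1.09 and the 4OHT to MM-401 ratio 0.888.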

How the results depend on the processing

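The difference between the lines kept its direction for splitting under the 4 alternatives run, and the overlap shares exchanged their order when nearby peaks counted as shared. Counting peaks up to 2 kb apart as shared gave 85.7% of DMSO and 95.9% of EtOH peaks, requiring 50% of the peak to be covered gave 59.7% and 57.7%, keeping the widest 50% of each list gave 85.1% and 80.6%, and reducing the longer list to the length of the shorter gave 70.8% and 65.3%. With the widest 50% of each list, 85.3% of DMSO bases and 79.9% of EtOH bases were covered in the other list. The share of wide domains split, DMSO then EtOH, was 3.29% and 23.4% with the other list merged across 500 bp, 29.7% and 69.5% from 3 kb, 40.0% and 92.1% from 10 kb, and 20.4% and 71.2% with pieces of at least 500 bp. Windows higher in DMSO numbered 29 at 500 kb, 6 at 2 Mb, 67 at 1.5-fold and 5 with the widest 50% of each list. Windows higher in EtOH numbered 2 at 500 kb (chr11:116500001-117000000 and chr17:63000001-63500000) and 3 at 1.5-fold (chr4:105000001-106000000, chr11:116000001-117000000 and chr17:63000001-64000000). With peaks up to 2 kb apart as shared, 56.3% of 14698 DMSO-specific peaks were called under MM-401 and 52.3% of 4061 EtOH-specific peaks under 4OHT. With sharing at 1 bp and only line-specific peaks of at least 500 bp, the shares were 79.3% of 2956 and 73.0% of 1220. Of 38 alternative values, 10 stayed within the counting interval or within 1.5-fold of a count. No paired analysis was possible because each line had 1 library.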
